A study of Mus musculus with 20 samples.

Results

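The genes described here are 10 genes of the major histocompatibility complex (MHC) and of antigen presentation, of the 49568 gene symbols counted by RNA sequencing in blood-forming cells of mouse bone marrow. They are the class II chain genes H2-Ab1, H2-Aa and H2-Eb1, the class II invariant chain gene Cd74, the class II transactivator gene Ciita, the class I genes H2-K1 and H2-D1, the class I light chain gene B2m, and the peptide supply genes Psmb8 and Tap1. They were chosen by their counts in 1 comparison, because H2-Ab1 and Psmb8 differed between long-term haematopoietic stem cells (LT-HSC) of AhR-KO and wild-type (WT) mice in an earlier look at these counts. The AhR-KO values of all 10 in LT-HSC are therefore given as a description, with no test.

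The 4 groups were AhR-KO multipotent progenitors (MPP), WT MPP, AhR-KO LT-HSC and WT LT-HSC, with 5 libraries each. AhR-KO mice lack the aryl hydrocarbon receptor, a transcription factor that binds small aromatic molecules, and WT mice were C57BL/6, the strain that the labels give for every library. All mice were untreated and 8 to 12 weeks old, and the cells were sorted by flow cytometry, MPP being the more mature population that descends from LT-HSC. The series asks which genes under the receptor's control act on stem cell function and proliferation. The sources used here do not give the knockout allele, the surface markers of the sort or any pooling of animals. The labels do not say that libraries came from separate animals, so p-values measure the spread between these libraries, which may in part be technical.

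Library totals ran from 13712668 to 21622653 counts. Values below are CPM, counts scaled to TMM-adjusted library totals. Ahr, the targeted gene, did not mark the knockout: it ranged over 9.79 to 19.2 CPM in AhR-KO MPP and 5.79 to 14.2 CPM in WT MPP, and over 18.5 to 29.7 CPM in AhR-KO LT-HSC and 20.8 to 36.6 CPM in WT LT-HSC. Neither difference was called by edgeR's quasi-likelihood test, with log2 fold changes of 0.69 ± 0.27 (SE, adjusted p = 0.663) in MPP and -0.15 ± 0.18 (adjusted p = 0.861) in LT-HSC. The counts therefore do not check the genotype, and AhR-KO is used as labelled. The populations did match their labels. The summed level of 8 MPP markers was 2978 to 3950.4 CPM in AhR-KO MPP and 2977 to 3972 CPM in WT MPP, against 685 to 1172 CPM in AhR-KO LT-HSC and 769 to 902 CPM in WT LT-HSC. The summed level of 12 LT-HSC markers was 1311 to 2304 CPM in AhR-KO MPP and 1237 to 1839 CPM in WT MPP, against 3291 to 4139 CPM in AhR-KO LT-HSC and 2737 to 4217 CPM in WT LT-HSC. The library WT LT-HSC 1 stood apart from the other 4 of its group in 6 of the 10 genes, and AhR-KO LT-HSC 2 and 3 had raised monocyte, macrophage and neutrophil markers. The AhR-KO values of the 10 genes in LT-HSC are given with and without WT LT-HSC 1, as are some other results. The values within genotype and the test results of other pathway genes include it.

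MHC class I molecules sit on nearly all nucleated cells and show peptides made in the cell to cytotoxic T cells, while class II molecules show peptides from engulfed proteins to helper T cells and are typical of B cells, dendritic cells and macrophages. A class II molecule is a pair of an alpha and a beta chain that is held together and filled by the invariant chain until it meets a peptide, and transcription of all these parts depends on the transactivator CIITA. A class I molecule is a heavy chain bound to beta-2-microglobulin; its peptides are cut by the proteasome, of which PSMB8 is an interferon-inducible catalytic subunit, and pumped into the endoplasmic reticulum by the TAP transporter. Haematopoietic stem and progenitor cells are known to carry class I and, at lower levels, class II molecules.

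RefSeq promoter windows (GRCm38.p6, 250 bases before to 50 after the start) were found for 7 of the 10 genes. The 5 windows printed here are those of 2 class II genes and of the 3 class I genes, because in the population comparison below H2-Eb1 was called higher and all 3 class I genes lower in MPP, with H2-Aa not called, while their windows share short elements. In the class II windows capitals mark the Y box (CTGATTGG, the site of the factor NF-Y) with the X2 core (TGACG) in H2-Aa and the X1 core (AACNGATG) in H2-Eb1. The H2-Aa window is chr17:34287774-34288073 on the minus strand and the H2-Eb1 window chr17:34305617-34305916 on the plus strand, both written 5′ to 3′.
H2-Aa: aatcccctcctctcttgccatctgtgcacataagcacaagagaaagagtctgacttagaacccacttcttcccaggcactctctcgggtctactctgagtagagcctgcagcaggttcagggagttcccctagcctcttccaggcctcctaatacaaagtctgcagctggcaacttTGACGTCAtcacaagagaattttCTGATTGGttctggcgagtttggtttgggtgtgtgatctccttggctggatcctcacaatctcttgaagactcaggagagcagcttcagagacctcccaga
H2-Eb1: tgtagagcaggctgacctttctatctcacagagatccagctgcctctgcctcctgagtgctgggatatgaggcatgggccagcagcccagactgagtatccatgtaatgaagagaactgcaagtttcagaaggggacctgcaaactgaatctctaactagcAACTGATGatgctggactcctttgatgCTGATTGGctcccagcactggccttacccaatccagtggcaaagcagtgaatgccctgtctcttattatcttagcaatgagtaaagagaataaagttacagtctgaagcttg

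In the class I windows capitals mark the IRF core (AANNGAAA, the centre of the element that interferon regulatory factors bind), the X2 core and the CCAAT box, each on either strand. H2-K1 is shown by the first of its 2 windows, chr17:34000298-34000597 on the minus strand, H2-D1 by chr17:35262844-35263143 on the plus strand and B2m by chr2:122147437-122147736 on the plus strand.
H2-K1: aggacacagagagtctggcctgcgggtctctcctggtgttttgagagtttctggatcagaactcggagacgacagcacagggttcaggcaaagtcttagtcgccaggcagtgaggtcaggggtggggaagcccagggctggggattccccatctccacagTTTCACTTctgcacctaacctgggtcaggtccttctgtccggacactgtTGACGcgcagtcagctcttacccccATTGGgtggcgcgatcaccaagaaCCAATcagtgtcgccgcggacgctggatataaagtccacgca
H2-D1: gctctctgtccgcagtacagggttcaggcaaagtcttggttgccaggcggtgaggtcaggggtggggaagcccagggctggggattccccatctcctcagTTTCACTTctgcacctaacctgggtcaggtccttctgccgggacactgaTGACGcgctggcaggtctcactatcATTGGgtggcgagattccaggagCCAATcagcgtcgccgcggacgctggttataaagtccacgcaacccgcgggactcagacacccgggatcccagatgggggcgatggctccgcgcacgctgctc
B2m: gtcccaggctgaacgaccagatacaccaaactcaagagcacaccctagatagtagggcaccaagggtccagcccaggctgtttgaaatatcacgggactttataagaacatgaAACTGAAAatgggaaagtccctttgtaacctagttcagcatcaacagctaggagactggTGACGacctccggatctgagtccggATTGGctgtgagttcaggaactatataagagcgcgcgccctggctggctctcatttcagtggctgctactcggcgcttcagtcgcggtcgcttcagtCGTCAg

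The motifs were searched on both strands of the windows and set against all 32851 RefSeq mouse promoter windows of the same 300 bases. The Y box, whose letters include a CCAAT box, was in 4.1% of all windows and in those of H2-Aa, H2-Eb1, H2-K1, H2-D1 and Tap1, and the CCAAT box alone was in 37.4% of all windows. The X1 core was in 2.32% of all windows and in that of H2-Eb1. The X2 core was in 20.8% of all windows and in those of H2-Aa, H2-K1, H2-D1, B2m and Tap1. The IRF core was in 23.9% of all windows and in those of H2-Aa, H2-K1, H2-D1 and B2m. The core of the aryl hydrocarbon receptor's own element (GCGTG) was in 32.4% of all windows and in those of H2-K1, H2-D1, Psmb8 and Tap1. H2-K1 and H2-D1 carried the same run of the IRF core, the X2 core and the pair of CCAAT boxes in the same order. A match of letters is a description and not evidence of binding.

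Of the 10 genes, 7 lie in the MHC on chromosome 17 of GRCm38 (GENCODE M21 coordinates). H2-K1 occupies chr17:33996017-34000347 on the minus strand. It is followed by Tap1 (chr17:34187553-34197225) and Psmb8 (chr17:34197721-34201454), both on the plus strand. The class II genes come next, H2-Ab1 at chr17:34257689-34269419 on the plus strand, H2-Aa at chr17:34282744-34287823 on the minus strand and H2-Eb1 at chr17:34305867-34316674 on the plus strand. H2-D1 lies farthest along, at chr17:35262730-35267499 on the plus strand. The others are elsewhere, B2m at chr2:122147686-122153083, Ciita at chr16:10480059-10528418 and Cd74 at chr18:60803848-60812652, all on the plus strand.

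All 10 genes were detected in each of the 20 libraries, and B2m, H2-D1 and H2-K1 exceeded the other 7 per length of transcript. Mean levels over the 20 libraries, in CPM per kilobase of merged exons, were 2023 for B2m, 879.6 for H2-D1 and 582 for H2-K1. Cd74 averaged 95.4, Psmb8 69.8, Tap1 46.8 and H2-Ab1 35.5 CPM per kilobase. H2-Aa at 10.5 and H2-Eb1 at 10.2 CPM per kilobase could not be told apart, with libraries from 5.46 to 19.4 and from 4.37 to 26.6. Ciita, the regulator, averaged 0.529 CPM per kilobase. Counts of H2-K1 and H2-D1 are uncertain where reads match relatives: 9.63% and 12.8% of the 50-base windows in their transcripts occur in other genes, among them each other and members of the H2-Q family. For Psmb8 that share was 11.9%, mainly with the annotated overlapping gene Gm20496, which covers 14.7% of its exon bases. The kit does not mark strand, so reads of Psmb8 and Gm20496, or of Tap1 and Psmb9 over 3.87% of the Tap1 exon bases, cannot be separated.

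**Figure D1:**
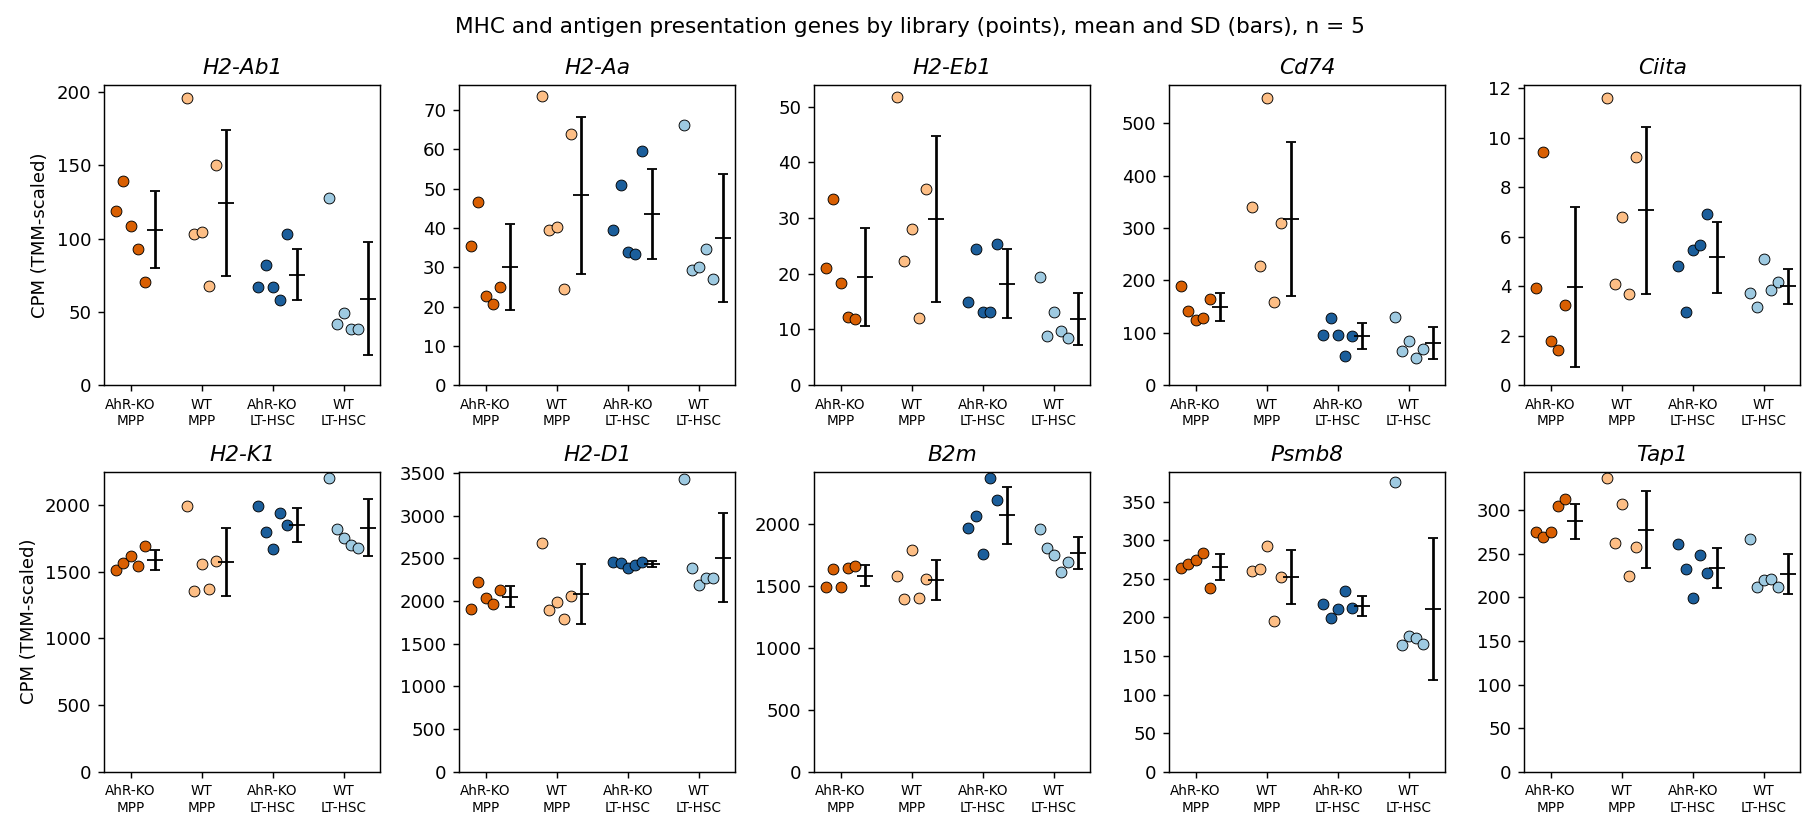
Level of each of the 10 genes in CPM (vertical axes, each starting at 0) in the 5 libraries of AhR-KO MPP, WT MPP, AhR-KO LT-HSC and WT LT-HSC (points), with the group mean and SD (bars, n = 5). WT LT-HSC 1 is the high point of its group for H2-Ab1 (128 CPM) and Psmb8 (376 CPM), and WT MPP 3 is the high point of Cd74 (549 CPM).

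In LT-HSC the 5 class II genes had positive log2 fold changes of AhR-KO over WT with overlapping groups, and the size of all but Ciita's turned on WT LT-HSC 1. H2-Ab1, the beta chain of the A molecule, had 67.0, 81.7, 67.2, 58.4 and 103 CPM in AhR-KO LT-HSC, against 128, 41.9, 48.9, 38.5 and 38.1 CPM in WT LT-HSC, where the first value is that of WT LT-HSC 1. That library lay above all 5 AhR-KO libraries and the other 4 WT libraries lay below all of them. The mean was 75.4 ± 17.5 CPM in AhR-KO LT-HSC and 59.1 ± 38.8 CPM in WT LT-HSC (SD, n = 5 each), or 41.9 ± 4.997 CPM over the 4 WT libraries without WT LT-HSC 1. The log2 fold change was 0.37 ± 0.34 (SE), and 0.86 ± 0.15 without that library.

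Psmb8, the immunoproteasome subunit, had 217, 199.5, 211, 235 and 212 CPM in AhR-KO LT-HSC, against 376, 164, 175, 173 and 165 CPM in WT LT-HSC. The arrangement was the one seen for H2-Ab1, with WT LT-HSC 1 above every AhR-KO library and the remaining 4 below. The log2 fold change was 0.04 ± 0.22 over all libraries and 0.36 ± 0.05 without WT LT-HSC 1. Psmb5, the constitutive subunit whose place PSMB8 takes, averaged 93.0 ± 5.79 CPM in AhR-KO LT-HSC and 88.9 ± 19.03 CPM in WT LT-HSC, a log2 fold change of 0.08 ± 0.13 (edgeR adjusted p = 0.911). It had the arrangement of Psmb8. WT LT-HSC 1, at 122 CPM, lay above the AhR-KO libraries (86.7 to 101 CPM), and the other WT libraries (76.0 to 84.7 CPM) lay below them.

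The other class II genes had the same sign. H2-Aa, the alpha chain of the A molecule, had 39.6, 51.0, 33.9, 33.4 and 59.6 CPM in AhR-KO LT-HSC, against 66.1, 29.3, 30.0, 34.8 and 27.0 CPM in WT LT-HSC, and the groups overlapped. H2-Eb1, the beta chain of the E molecule, had 14.9, 24.5, 13.1, 13.2 and 25.4 CPM in AhR-KO LT-HSC, against 19.4, 8.74, 13.1, 9.65 and 8.49 CPM in WT LT-HSC. Its log2 fold change, the highest of the members' in LT-HSC, was 0.63 ± 0.29, or 0.88 ± 0.24 without WT LT-HSC 1. Cd74 had 95.6, 128, 96.3, 55.8 and 93.3 CPM in AhR-KO LT-HSC, against 129.9, 65.1, 83.7, 51.9 and 69.5 CPM in WT LT-HSC. Both genes overlapped between genotypes. Ciita was low in both, at 2.97 to 6.90 CPM in AhR-KO LT-HSC and 3.17 to 5.09 CPM in WT LT-HSC. The log2 fold changes of H2-Aa, Cd74 and Ciita were 0.23 ± 0.27, 0.25 ± 0.26 and 0.38 ± 0.23, and without WT LT-HSC 1 they were 0.54 ± 0.17, 0.49 ± 0.22 and 0.36 ± 0.25.

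On the class I side, B2m had the largest log2 fold change with all libraries in, and its groups overlapped. It had 1968, 2061, 1755, 2371 and 2189.9 CPM in AhR-KO LT-HSC, against 1958, 1807, 1752, 1611 and 1693 CPM in WT LT-HSC. The log2 fold change of B2m was 0.24 ± 0.09, or 0.28 ± 0.07 without WT LT-HSC 1. H2-K1 ranged over 1673 to 1991 CPM in AhR-KO LT-HSC and 1681 to 2205 CPM in WT LT-HSC. H2-D1 was tightly grouped at 2383 to 2460.4 CPM in AhR-KO LT-HSC and spread over 2189 to 3429 CPM in WT LT-HSC, the top value again being WT LT-HSC 1. Tap1, a subunit of the peptide transporter, ranged over 199.5 to 261 CPM in AhR-KO LT-HSC and 212 to 267 CPM in WT LT-HSC. Their log2 fold changes were 0.03 ± 0.09, -0.03 ± 0.12 and 0.06 ± 0.09, and without WT LT-HSC 1 they were 0.10 ± 0.05, 0.11 ± 0.03 and 0.13 ± 0.07, that of H2-D1 having changed sign.

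Of the 10 genes, 9 had positive values in this comparison, with a median log2 fold change of 0.24 beside 0.00079 over all 16065 genes tested, but the choice of members fixes that direction in part. None of the 10 separated the 5 AhR-KO from the 5 WT libraries without overlap, where 3.63% of all genes tested did, and 0.00622% of all genes passed the test at an adjusted p under 0.05 (1.24% without WT LT-HSC 1). Without WT LT-HSC 1, H2-Ab1, H2-Eb1 and Psmb8 lay wholly higher in AhR-KO, 3 of the 10. Over all genes, 4.61% lay wholly higher and 8.86% did not overlap. H2-Ab1 and Psmb8 chose the set, and that library was singled out on these genes, so the count of members tests nothing. In these bulk libraries, more cells of a type and more RNA per cell cannot be told apart. Beside these values, monocyte and macrophage markers summed to 465 to 2626 CPM in AhR-KO LT-HSC and 522 to 741 CPM in WT LT-HSC, the high values being 2408 CPM (AhR-KO LT-HSC 2) and 2626 CPM (AhR-KO LT-HSC 3). Their part in the class II values was not tested. H2-Ab1 in those libraries, at 81.7 and 67.2 CPM, lay within the 58.4 to 103 CPM of AhR-KO LT-HSC 1, 4 and 7, while Cd74, at 128 and 96.3 CPM, lay above the 55.8 to 95.6 CPM of those 3 libraries.

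In MPP none of the 10 genes passed the test between genotypes, and the class II genes had the opposite sign to LT-HSC. Cd74 came closest, with 188, 142, 124, 128 and 165 CPM in AhR-KO MPP, against 339, 228, 549, 159 and 310.3 CPM in WT MPP. A single WT library, WT MPP 4, lay within the AhR-KO range and the other 4 lay above all AhR-KO libraries. The mean was 149.7 ± 26.9 CPM in AhR-KO MPP and 317 ± 148 CPM in WT MPP (SD, n = 5 each). The log2 fold change was -1.09 ± 0.27 (SE), with an unadjusted p of 0.00144 and an adjusted p of 0.522 in edgeR's quasi-likelihood test, and alternatives gave adjusted p from 0.118 to 0.964. Without WT MPP 3 it was -0.79 ± 0.20 (adjusted p = 0.655).

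The chain genes had wide spreads in both genotypes. H2-Aa had 35.5, 46.7, 22.7, 20.8 and 24.9 CPM in AhR-KO MPP, against 73.7, 39.4, 40.2, 24.6 and 64.1 CPM in WT MPP, a log2 fold change of -0.68 ± 0.30 with an unadjusted p of 0.0379 and an adjusted p of 0.714 in edgeR. H2-Eb1 had 21.0, 33.5, 18.3, 12.2 and 11.8 CPM in AhR-KO MPP, against 51.7, 22.3, 28.0, 11.96 and 35.2 CPM in WT MPP, a log2 fold change of -0.62 ± 0.36 (adjusted p = 0.795). WT MPP 1 was the highest and WT MPP 4 the lowest WT library in both genes. H2-Ab1 had 119, 139.6, 109, 92.8 and 70.2 CPM in AhR-KO MPP, against 196, 103, 104, 67.3 and 149.99 CPM in WT MPP, so that the ranges lay across each other and the log2 fold change was -0.23 ± 0.25 (adjusted p = 0.889). Ciita had 3.93, 9.43, 1.78, 1.41 and 3.24 CPM in AhR-KO MPP, against 11.6, 4.08, 6.79, 3.68 and 9.20 CPM in WT MPP, a log2 fold change of -0.84 ± 0.49 (adjusted p = 0.796), or -1.46 ± 0.42 (adjusted p = 0.799) without AhR-KO MPP 2, with adjusted p from 0.529 to 0.997 over the alternatives. AhR-KO MPP 2 was the highest AhR-KO library in all 3 chain genes and in Ciita.

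The class I side gave log2 fold changes near 0 in MPP. H2-K1 averaged 1588 ± 71.5 CPM in AhR-KO MPP and 1572 ± 258 CPM in WT MPP, H2-D1 2051 ± 127 and 2081 ± 349 CPM, and B2m 1583 ± 86.1 and 1544 ± 162 CPM in the same groups. Psmb8 averaged 266 ± 17.0 CPM in AhR-KO MPP and 253 ± 35.2 CPM in WT MPP, and Tap1 287 ± 19.9 and 278 ± 44.4 CPM in the same groups (SD, n = 5 each). The 5 log2 fold changes ran from -0.02 for H2-D1 to 0.07 for Psmb8, each with a standard error of 0.09 to 0.10 and with adjusted p of 0.918 to 0.987. In all 5 genes the WT libraries were the more widely spread.

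Over the 10 genes, 0 were called in MPP, where 0.0311% of all 16077 genes tested were, and the same count of 0 came from DESeq2 and from limma voom. An unadjusted p under 0.05 was found for 2 of them, Cd74 and H2-Aa, and for 1065 of all 16077 genes tested. Their median log2 fold change was -0.12, beside 0.0048 over all genes tested, with 4 positive and 6 negative values, and none separated the genotypes, where 1.17% of all genes did. Immunoglobulin mu (Ighm), the heavy chain of the early B cell receptor and a B cell marker, was 1503 to 6904 CPM in AhR-KO MPP and 5551 to 29670.3 CPM in WT MPP, a log2 fold change of -1.54 ± 0.57 (adjusted p = 0.663 in edgeR). The highest Ighm library, WT MPP 3, was also the highest for Cd74. The 13 B cell markers other than Ighm and Iglc2 lay the other way, summing to 95.1 to 186 CPM in AhR-KO MPP and 67.0 to 134 CPM in WT MPP. Dendritic cell markers summed to 431 to 652 CPM in AhR-KO MPP and 581 to 774 CPM in WT MPP, and without Flt3, Bst2 and Tcf4, which progenitors express too, to 14.1 to 28.0 and 16.2 to 48.0 CPM. No B cell or dendritic cell marker was at 0 in every library of a group, and the part of such cells in the class II values was not tested.

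**Figure D2:**
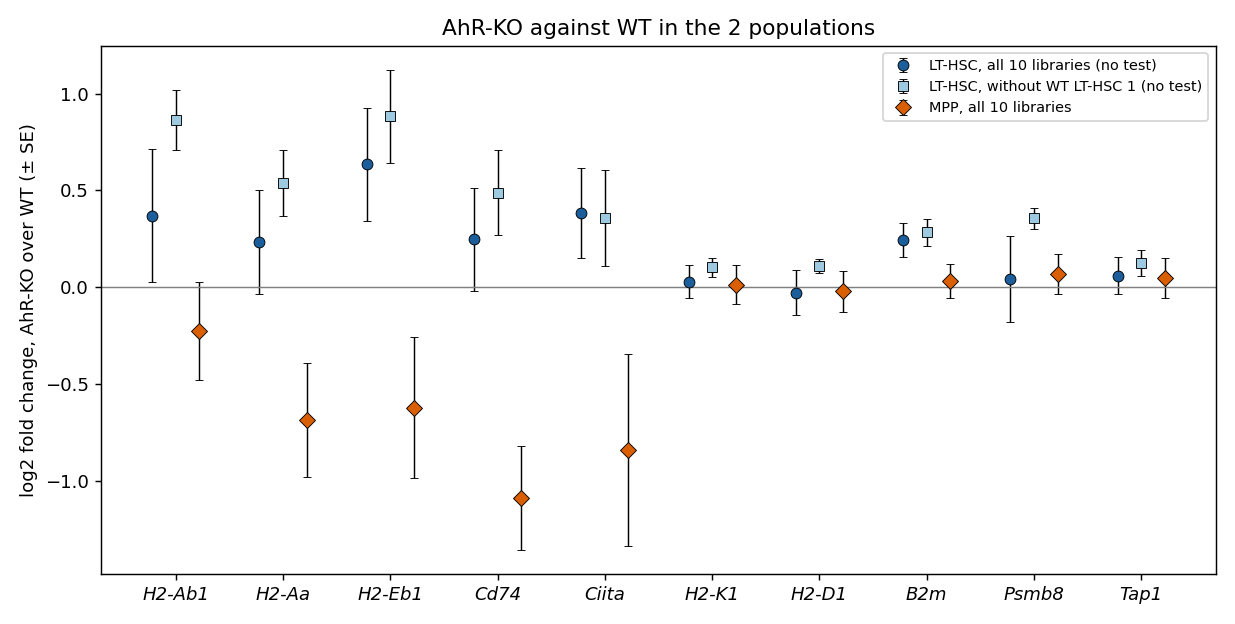
Log2 fold change of AhR-KO over WT for each of the 10 genes (vertical axis, bars are ± SE) in LT-HSC with all libraries (circles), in LT-HSC without WT LT-HSC 1 (squares) and in MPP (diamonds). The 5 class II genes lie above 0 in LT-HSC, from 0.23 to 0.63 with all libraries, and below 0 in MPP, from -0.23 to -1.09, while the 5 class I and peptide supply genes lie near 0 in MPP.

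The opposite signs of the class II genes in the populations are 2 sets of values side by side. The difference between the populations' AhR-KO effects was not tested, since it contains the LT-HSC contrast that chose the members, and no member passed the test within MPP.

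Between populations the members split: Cd74, H2-Ab1, H2-Eb1 and Tap1 were higher in MPP, and the class I genes H2-K1, H2-D1 and B2m were lower. This comparison averaged over genotypes in 1 fit of all 20 libraries. Its contrast is uncorrelated with the AhR-KO difference that chose the members only where the genotypes spread equally. Psmb8 had an SD of 12.8 CPM in AhR-KO LT-HSC and 92.5 CPM in WT LT-HSC. The members' p-values between populations may therefore not be free of that choice. Of the 10 genes, 7 were called, 4 higher and 3 lower, where 36.9% of all 17416 genes tested were called, 19.2% higher and 17.7% lower. The median log2 fold change was 0.25, beside 0.0153 over all genes tested. None of the 10 separated MPP from LT-HSC libraries without overlap, where 7.37% of all genes did.

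Cd74 had the largest difference of the 10. The 10 MPP libraries had 124 to 549 CPM and the 10 LT-HSC libraries 51.9 to 129.9 CPM, with AhR-KO LT-HSC 2 and WT LT-HSC 1 at the top of the LT-HSC range and inside that of MPP. Its log2 fold change was 1.33 ± 0.20 (adjusted p = 3.439e-05 in edgeR's quasi-likelihood test). H2-Ab1 was higher in MPP by 0.78 ± 0.23 on the log2 scale (adjusted p = 0.0108), or by 1.03 ± 0.17 without WT LT-HSC 1. H2-Eb1 was higher in MPP by 0.71 ± 0.25 (adjusted p = 0.0339), but this call was lost in 15 of 28 alternatives, with adjusted p up to 0.0993. Of these losses, 12 came from leaving out 1 library, which was AhR-KO MPP 1, 2 or 3, WT MPP 1 or 5, AhR-KO LT-HSC 1, 3 or 4, or WT LT-HSC 4, 5, 6 or 8.

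H2-Aa did not follow its partner H2-Ab1. The A molecule needs both chains, yet H2-Aa gave a log2 fold change of -0.08 ± 0.22 (adjusted p = 0.810 in edgeR), and 0.07 without WT LT-HSC 1. Ciita at 0.22 ± 0.30 (adjusted p = 0.616) was not called either. The values within genotype, which are a description with no p and include WT LT-HSC 1, differed for the class II genes. MPP over LT-HSC was 0.67 for Cd74 in AhR-KO and 1.99 in WT, 0.49 and 1.07 for H2-Ab1, 0.08 and 1.33 for H2-Eb1, -0.53 and 0.37 for H2-Aa, and -0.39 and 0.82 for Ciita, each given for AhR-KO and then for WT.

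The 3 class I genes were lower in MPP by similar amounts. H2-K1 averaged 1588 CPM in AhR-KO MPP and 1572 CPM in WT MPP, against 1849.6 CPM in AhR-KO LT-HSC and 1831 CPM in WT LT-HSC, a log2 fold change of -0.22 ± 0.07 (adjusted p = 0.0179). H2-D1 averaged 2051 CPM in AhR-KO MPP and 2081 CPM in WT MPP, against 2434 CPM in AhR-KO LT-HSC and 2508 CPM in WT LT-HSC, a log2 fold change of -0.26 ± 0.08 (adjusted p = 0.0186). B2m averaged 1583 CPM in AhR-KO MPP and 1544 CPM in WT MPP, against 2069 CPM in AhR-KO LT-HSC and 1764 CPM in WT LT-HSC, a log2 fold change of -0.29 ± 0.06 (adjusted p = 9.807e-04). These calls, and those of Cd74 and H2-Ab1, held in all 28 alternatives. Within genotype the values were -0.22 in AhR-KO and -0.22 in WT for H2-K1, -0.25 in AhR-KO and -0.27 in WT for H2-D1, and -0.39 in AhR-KO and -0.19 in WT for B2m.

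The peptide supply genes lay on the other side. Tap1 averaged 287 CPM in AhR-KO MPP and 278 CPM in WT MPP, against 234 CPM in AhR-KO LT-HSC and 226 CPM in WT LT-HSC. It was higher in MPP by 0.30 ± 0.07 on the log2 scale (adjusted p = 0.00332 in edgeR). Tap1 was called in 27 of 28 alternatives, with adjusted p up to 0.062 under the replicate block. Psmb8 averaged 266 CPM in AhR-KO MPP and 253 CPM in WT MPP, against 215 CPM in AhR-KO LT-HSC and 211 CPM in WT LT-HSC, a log2 fold change of 0.28 ± 0.13 that was not called (adjusted p = 0.0884). Without WT LT-HSC 1 Psmb8 was called, at 0.44 ± 0.06 (adjusted p = 6.93e-06). That library was singled out on the members' values, that of Psmb8 among them, so this call tests nothing. Over 28 alternatives Psmb8 was called in 3, and its adjusted p ran from 3.31e-06 to 0.276.

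Markers of other cells differed between populations too. Of 15 B cell markers, 9 were at 1 CPM or more in every AhR-KO MPP library and 5 in every WT MPP library, against 3 in AhR-KO LT-HSC and 2 in WT LT-HSC. Together they summed to 1686 to 7178 CPM in AhR-KO MPP and 5729 to 30307.8 CPM in WT MPP, against 56.4 to 853 CPM in AhR-KO LT-HSC and 60.1 to 670.1 CPM in WT LT-HSC. Without Ighm and Iglc2 the sums were 95.1 to 186 CPM in AhR-KO MPP and 67.0 to 134 CPM in WT MPP, against 48.2 to 89.5 CPM in AhR-KO LT-HSC and 43.9 to 73.9 CPM in WT LT-HSC. Neutrophil markers, which include the progenitor genes Elane and Mpo, summed to 2733 to 10665 CPM in AhR-KO MPP and 5275 to 8165 CPM in WT MPP, against 32.0 to 3070.4 CPM in AhR-KO LT-HSC and 14.1 to 1226 CPM in WT LT-HSC. The 12 dendritic cell markers summed to 431 to 652 CPM in AhR-KO MPP and 581 to 774 CPM in WT MPP, against 199 to 243 CPM in AhR-KO LT-HSC and 218 to 239 CPM in WT LT-HSC. The 9 of them other than Flt3, Bst2 and Tcf4 summed to 14.1 to 28.0 CPM in AhR-KO MPP and 16.2 to 48.0 CPM in WT MPP, against 9.005 to 32.0 CPM in AhR-KO LT-HSC and 2.90 to 19.8 CPM in WT LT-HSC. Monocyte and macrophage markers summed to 768 to 1349.9 CPM in AhR-KO MPP and 745 to 1184 CPM in WT MPP, and T cell markers stayed at or below 33.1 CPM in every library. The part of these cells in the class II values was not tested.

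**Figure D3:**
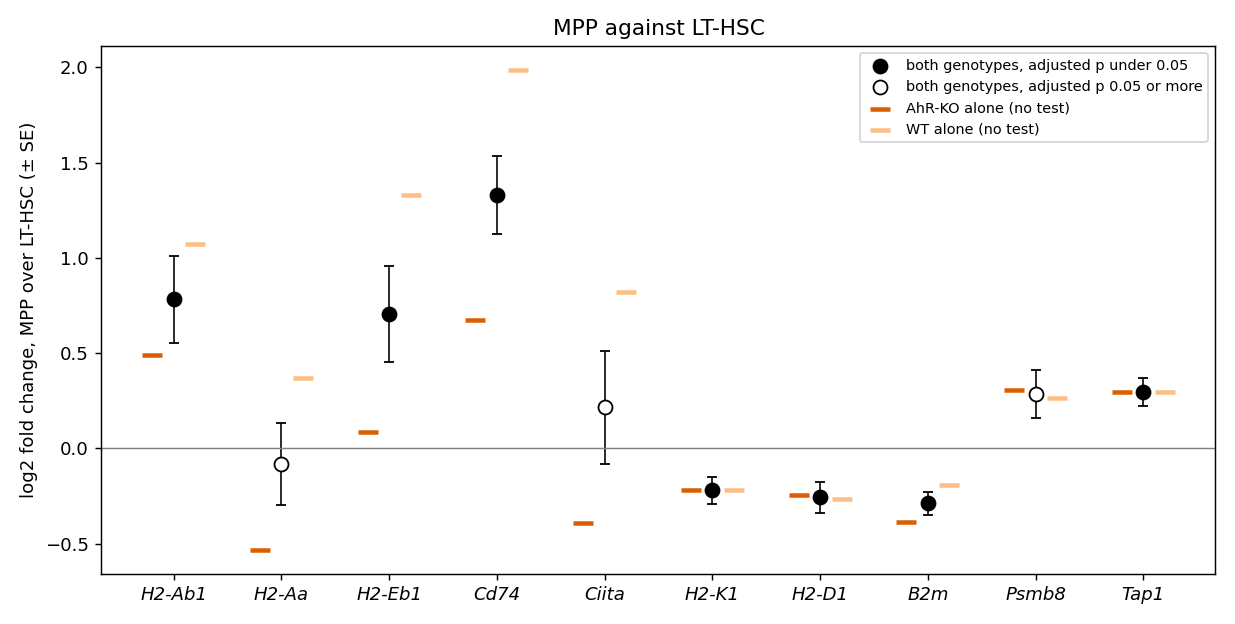
Log2 fold change of MPP over LT-HSC for each of the 10 genes (vertical axis), averaged over genotypes with ± SE (circles, filled where the adjusted p is under 0.05) and within AhR-KO and WT (dashes, no test). Cd74, H2-Ab1, H2-Eb1 and Tap1 are called higher and H2-K1, H2-D1 and B2m lower in MPP, and the genotype dashes lie farther apart for the class II genes than for H2-K1 and H2-D1.

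Of 66 other genes of the pathway, in 6 lists, 61 could be tested between populations, and 18 were higher and 10 lower in MPP, beside 19.2% higher and 17.7% lower over all genes tested. Of 13 genes tested from a class II accessory list, 5 were higher and 1 lower. The list was not limited to class II: it also held Cd1d1 and the co-stimulation genes Cd80, Cd86 and Cd40. H2-Ob, the beta chain of the DO molecule that restrains peptide exchange on class II, averaged 91.1 CPM in AhR-KO MPP and 90.7 CPM in WT MPP, against 23.5 CPM in AhR-KO LT-HSC and 19.3 CPM in WT LT-HSC. Its log2 fold change was 2.09 ± 0.13 (adjusted p = 3.89e-10 in edgeR) with no overlap between populations. Cd1d1, which shows lipids to natural killer T cells, was higher in MPP by 0.82 ± 0.12 (adjusted p = 2.503e-05), and the invariant chain protease gene Ctss by 1.28 ± 0.32 (adjusted p = 0.00328). Ctsl, another lysosomal protease gene, was lower, at a log2 fold change of -0.88 ± 0.10 (adjusted p = 1.191e-06). H2-Ea-ps, the alpha chain partner of H2-Eb1 that the C57BL/6 haplotype does not transcribe, was at 0 in 19 libraries and at 0.0518 CPM in WT MPP 4.

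Of 7 factors that bind class II promoters, 2 were lower and 0 higher in MPP, both of them subunits of the RFX complex that binds the X box. Rfxap gave a log2 fold change of -0.46 ± 0.11 (adjusted p = 0.00268 in edgeR) and Rfxank of -0.29 ± 0.10 (adjusted p = 0.0308). Rfxap was at 85.7 CPM in WT LT-HSC 1 and at 43.0 to 49.9 CPM in the other WT LT-HSC libraries. Its value without WT LT-HSC 1 is not given. Of 9 genes of class I loading and the endoplasmic reticulum, 5 were higher and 1 lower. Calr, a chaperone of newly made class I molecules, was higher by 0.69 ± 0.08 (adjusted p = 7.771e-07) and Tap2, the partner of TAP1, by 0.63 ± 0.08 (adjusted p = 3.816e-06), both without overlap. Sec61b, a subunit of the translocon, was higher by 0.63 ± 0.15 (adjusted p = 0.00208), and Tapbp, which bridges TAP and class I, had -0.25 ± 0.07 (adjusted p = 0.0113). Tapbp too stood high in WT LT-HSC 1, at 496 CPM beside 362 to 389 CPM in the other WT LT-HSC libraries.

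Of 11 non-classical class I genes, 2 were higher and 2 lower. H2-Q10 was higher by 0.49 ± 0.14 (adjusted p = 0.00788 in edgeR), while H2-Q6 had -0.31 ± 0.09 (adjusted p = 0.0129) and Mr1, which shows vitamin B metabolites, -0.66 ± 0.14 (adjusted p = 0.00112). The H2-Q genes are close copies of each other, so their counts are uncertain. Of 13 immunoproteasome genes and class I regulators, 4 were higher and 4 lower. Irf2 gave a log2 fold change of -0.74 ± 0.10 (adjusted p = 5.634e-06) and Jak1 of -0.42 ± 0.07 (adjusted p = 1.701e-04), both of them genes of interferon signalling. Irf2 was at 183 CPM in WT LT-HSC 1 and at 109 to 123 CPM in the other WT LT-HSC libraries. Of 8 constitutive proteasome genes, 2 were higher, Psmb5 by 0.31 ± 0.09 (adjusted p = 0.00682) and Psmb7 by 0.21 ± 0.06 (adjusted p = 0.00741).

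Between genotypes none of these pathway genes was called, of 61 tested in MPP and 60 in LT-HSC. An unadjusted p under 0.05 was found for 1 in MPP and 7 in LT-HSC, beside 1065 of all 16077 genes tested in MPP and 1422 of 16065 in LT-HSC, with medians of 0.006 and 0.0483 on the log2 scale. In MPP the gene with the smallest p in each list was Ctss at -0.47 ± 0.22 (adjusted p = 0.758 in edgeR), Nfyb at -0.16 ± 0.10 (adjusted p = 0.811), Tapbp at -0.15 ± 0.11 (adjusted p = 0.843), H2-Q7 at 0.26 ± 0.14 (adjusted p = 0.776), Ifngr2 at 0.29 ± 0.14 (adjusted p = 0.754) and Psmb7 at -0.06 ± 0.10 (adjusted p = 0.924). In LT-HSC, edgeR gave log2 fold changes of -0.62 ± 0.15 for Cd1d1 (adjusted p = 0.373) and 0.38 ± 0.10 for Calr (adjusted p = 0.444). Psmb7 had 0.28 ± 0.09 there (adjusted p = 0.509). The genotypes did not overlap in Cd1d1, Calr and Psmb7, where 3.63% of all genes tested did not overlap.

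Libraries that were high in a member tended to be high in others, with a higher median likeness within a side than across the sides. The likeness of a pair of genes was taken as Pearson's r of log2(CPM + 2) over the 20 libraries after group means were removed, a description in which all points share their library and its depth. Among the 5 class II genes the median r was 0.61 over 10 pairs, from 0.24 to 0.93, and among the 5 class I and peptide supply genes it was 0.62, from 0.44 to 0.88. Across the sides the median was 0.46 over 25 pairs, from 0.08 to 0.81. Psmb8 was more like H2-Ab1 (0.735) than like the genes of its own side (0.481 to 0.722). The median over pairs of other genes was not computed. The closest pairs were H2-Aa with H2-Eb1 (0.93), H2-Ab1 with H2-Aa (0.90) and H2-K1 with H2-D1 (0.88). Without WT LT-HSC 1 the medians were 0.67, 0.52 and 0.32.

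Outside the members, the 5 genes most like H2-Ab1 among 11883 with a mean of at least 5 CPM were Elovl1 (0.89), Cops4 (0.886), Rnmtl1 (0.881), Eif4e (0.862) and Uck1 (0.861). Those most like Psmb8 were Ift27 (0.95), Ech1 (0.947), Med28 (0.944), Cyb5a (0.943) and Eri3 (0.94). Both sets rested in part on WT LT-HSC 1. Over the other 19 libraries the H2-Ab1 values were 0.729 to 0.795, and those of Psmb8 were 0.667 to 0.733, at ranks 13 to 65.

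The balance of RNA counts between the A molecule's chain genes also differed between groups, a measure chosen after its values were seen and given with no test. The CPM of H2-Ab1 divided by that of H2-Aa was 3.35, 2.99, 4.78, 4.47 and 2.82 in AhR-KO MPP and 2.66, 2.62, 2.6, 2.74 and 2.34 in WT MPP. It was 1.69, 1.6, 1.98, 1.75 and 1.73 in AhR-KO LT-HSC and 1.93, 1.43, 1.63, 1.11 and 1.41 in WT LT-HSC. All 10 MPP libraries lay above all 10 LT-HSC libraries, and all AhR-KO MPP libraries lay above all WT MPP libraries, the latter by 2.82 against 2.74. The share of other gene pairs whose ratios separate as fully was not computed, so these separations test nothing. WT LT-HSC 1, high in both genes, had a ratio of 1.93, inside the range of AhR-KO LT-HSC.

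**Figure D4:**
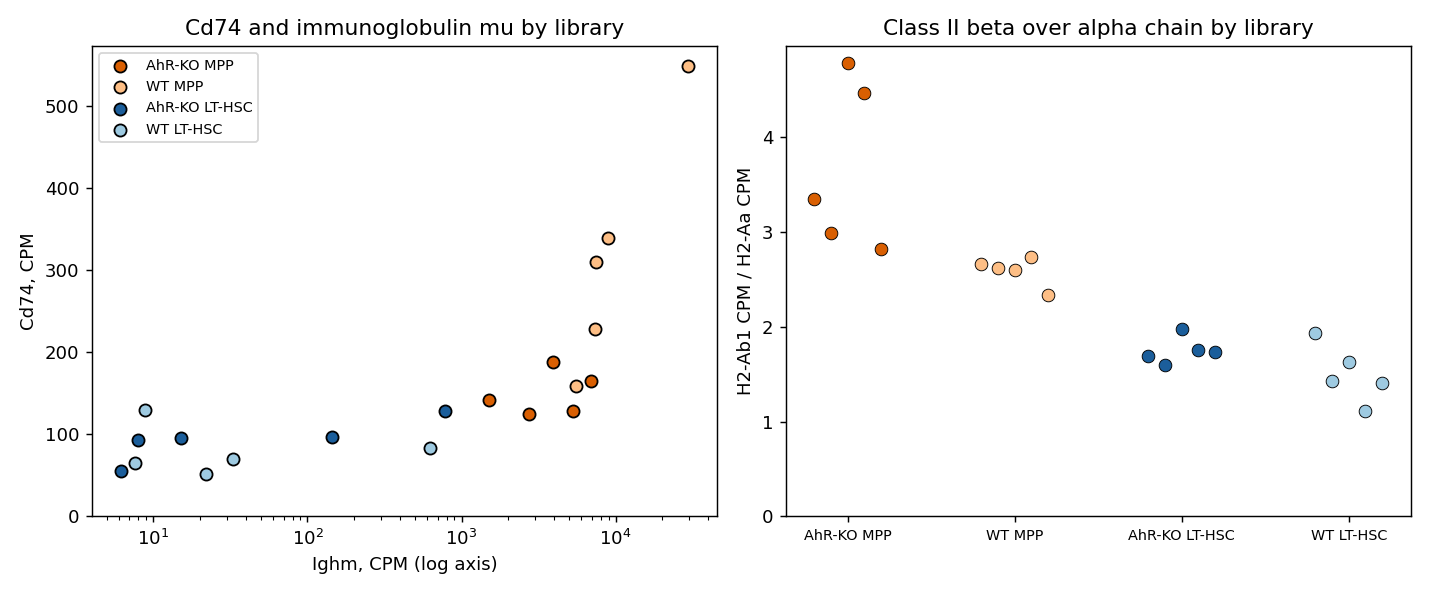
Left, Cd74 against Ighm in CPM for each of the 20 libraries (horizontal axis logarithmic), coloured by group; right, the CPM of H2-Ab1 divided by that of H2-Aa in each library. WT MPP 3 has the most Ighm (29670.3 CPM) and Cd74 (549 CPM), and the ratios of MPP libraries (2.34 to 4.78) lie above those of LT-HSC libraries (1.11 to 1.98).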

How the data were processed

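RNA of 20 libraries, 5 in each of 4 groups, was measured with an unstranded poly(A) kit, per the labels' protocols, which also speak of dendritic cell samples that are not in this series. The authors deposited unnormalized read counts, 2 tables of the same 49568 symbols, which were joined. Tools listed, without their settings, are STAR 2.5.2b, Trimmomatic 0.36, featureCounts, Subread 1.5.0p3 and DESeq2 1.12.4, with the build GRCm38.p5, per the submitters' processing notes. Spreadsheet dates replaced 26 symbols, none of them a member.

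The counts were tested with edgeR 4.0.16 in R 4.3.3 (filterByExpr, TMM, robust quasi-likelihood F test, two-sided, Benjamini-Hochberg over all genes tested, called at an adjusted p under 0.05), after the code was tested on simulated data. AhR-KO was compared with WT in the 10 libraries of a population, and MPP with LT-HSC in 1 fit of 20 libraries. Standard errors were derived from each log2 fold change and its F statistic. Common biological variation between libraries (coefficient of variation) was 32.5% in LT-HSC, 29.2% in MPP and 33.8% over all libraries, so spread between libraries rather than depth limits the precision.

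The members, the gene and marker lists and the tests were chosen with earlier results of these data known. All 10 members are named. Of each pathway list, the called genes of smallest p, at most 3, are named, or the gene of smallest p if none was called, beside H2-Ea-ps, Psmb5, Ahr and the 5 genes most like H2-Ab1 and Psmb8. A gene that this rule names is not reported here. Alternatives were DESeq2 size factors, no filter on low counts, a filter that asked for 5 CPM or more in 5 libraries, the Wald test of DESeq2 1.42.0, voom of limma 3.58.1 with sample quality weights, 1 fit of all libraries, the replicate number as a block, each library left out, and AhR-KO LT-HSC 2 and 3 left out with and without WT LT-HSC 1.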

Additional observations from a re-analysis of the deposited data

Results flagged for a closer look

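A group's highest or lowest library was set against the other 4 by Dixon's criterion, and 13 of 80 groups of values had a library far from the rest, 6 of them in members. Among independent values chance would give about 1 in 20. These values share libraries, and some marker sums share genes, so 13 of 80 does not test for an excess.

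All 6 values of members come from WT LT-HSC 1. It had 127.975 CPM of H2-Ab1, where the other 4 libraries had 38.1 to 48.9 CPM, and 66.1496 CPM of H2-Aa, where they had 27.0 to 34.8 CPM. It had 2205.46 CPM of H2-K1, where the others had 1681 to 1818 CPM, and 3429.13 CPM of H2-D1, where they had 2189 to 2386 CPM. Psmb8 was at 376.035 CPM, with the others at 164 to 175 CPM, and Tap1 at 266.832 CPM, with the others at 212 to 221 CPM. H2-Eb1, Cd74, Ciita and B2m of that library were not apart by this criterion. Its LT-HSC markers summed to 2737.17 CPM, with the others at 3804 to 4217 CPM, and its B cell markers other than Ighm and Iglc2 to 73.943 CPM, with the others at 43.9 to 52.3 CPM.

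Other libraries stood apart in marker sums. B cell markers summed to 30307.8 CPM in WT MPP 3 (others 5729 to 9012 CPM), 853.202 CPM in AhR-KO LT-HSC 2 (others 56.4 to 237 CPM) and 670.14 CPM in WT LT-HSC 5 (others 60.1 to 83.0 CPM). LT-HSC markers summed to 1236.67 CPM in WT MPP 5 (others 1741 to 1839 CPM), and MPP markers to 2977.62 CPM in AhR-KO MPP 5 (others 3671 to 3950.4 CPM). Whether these differences bear on the members' values was not tested.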

How the results depend on the processing

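In MPP, 0 members were called between genotypes in all 17 alternatives. Between populations 5 to 8 were called in 28 alternatives, and 6 to 8 when each library was left out. In LT-HSC, whose contrast chose the members, the counts past the threshold test nothing and are given as values of the settings: 0 with all libraries, 2 by voom, 1 without WT LT-HSC 1 and AhR-KO LT-HSC 2 and 3, and 0 to 2 when each library was left out. Over all genes the LT-HSC count ran from 1 with all libraries to 305 by voom and 203 without WT LT-HSC 1, and the MPP count from 5 to 50 by DESeq2.

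Same-numbered libraries did not all deviate together: correlations ran from -0.338 to 0.0149 in MPP, -0.164 to 0.0553 between WT populations and 0.0335 to 0.273 between AhR-KO populations, so the number was not taken as a pairing. With the replicate block 5 members were called between populations (H2-Eb1 and Tap1 lost), 0 in MPP and 0 in LT-HSC, and the LT-HSC member median was -0.0796 in place of 0.239 on the 4 libraries with shared numbers.

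Leaving out each library gave member medians of 0.136 to 0.357 in LT-HSC, -0.221 to 0.00864 in MPP and 0.0716 to 0.283 between populations. In LT-HSC, described with no test, leaving out each library gave values on both sides of 0 for Psmb8 (-0.0487 to 0.356), H2-D1 (-0.0751 to 0.11) and H2-K1 (-0.00856 to 0.104). The replicate block in LT-HSC gave -0.225 for H2-Ab1, -0.274 for H2-Aa, -0.33 for Cd74, -0.136 for Psmb8 and -0.0235 for H2-K1. That block kept only the LT-HSC libraries numbered 1 and 4, so WT LT-HSC 1 weighed more in it than in the main comparison. In MPP and between populations, the members whose values changed sign were not called under any setting. Between populations, Ciita was -0.106 by voom and -0.114 to 0.294 with a library left out (negative without AhR-KO MPP 2), and H2-Aa 0.0579 without WT LT-HSC 1 and AhR-KO LT-HSC 2 and 3 and -0.215 to 0.0706 with a library left out. In MPP, H2-D1 was 0.0396 by voom, and with a library left out H2-D1 was -0.0647 to 0.0758, B2m -0.000294 to 0.099, H2-K1 -0.0335 to 0.104, Psmb8 -0.00554 to 0.133 and Tap1 -0.0142 to 0.117. The cause was not tested. Alternatives were run for the members and not for the other pathway genes.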
